A study of Simmondsia chinensis with 44 samples.

Results

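Mid stage developing seed was compared with early stage developing seed of jojoba (Simmondsia chinensis), a dryland shrub grown for the liquid wax in its seeds. The comparison took 12 of the 44 libraries of the series, 6 of each stage, chosen by the stage that their labels name. All seeds came from germplasm PARL# 940, with no treatment named, and the labels give neither days after pollination nor whether the seed coat was kept or seeds were pooled. The other libraries used beside them were 6 of late and 6 of dry seed from the same time course, and 20 from a dissection of mid stage seed into cotyledons, embryonic axis and seed coat, with whole seed as the fourth group. Total counts ranged from 7713214 to 13593412 in early seed and from 10298519 to 16014089 in mid seed. Reads had been counted over 23491 genes, of which 18440 had enough counts to be tested.

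A seed holds tissues of different origin. The seed coat is maternal and surrounds the embryo, which is made of the axis, the future root and shoot, and the cotyledons. During seed filling an embryo passes from cell division to expansion and to the making of reserves. In jojoba, the cotyledons are the main store of the wax. RNA from a seed is a mixture of these tissues, so fewer cells of a type and less RNA per cell cannot be told apart. The files give gene identifiers without names or functions, and the stage labels could not be checked against known marker genes.

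The stages were set apart along the main axis of variation, and mid libraries were less alike than early ones. The first principal component of the 12 libraries took 68.6% of the variance and the second 7.32%. Early libraries lay between -70.3 and -56.0 on the first and mid libraries between 51.3 and 73.9. Pearson correlations over genes, on the log2(CPM + 0.5) scale, were 0.970 to 0.987 within early seed, 0.955 to 0.985 within mid seed and 0.868 to 0.906 between them (15, 15 and 36 pairs, with genes that are not independent). CPM stands for counts per 1000000 counts, with library totals scaled by TMM except where the number of genes detected is given. The common biological coefficient of variation was 0.190 in early seed and 0.233 in mid seed. Mid library 5 lay farthest from the others on the second component, and without it the mid value was 0.203. In the dissection series, cotyledon libraries 1 and 5 held more of Sc18g0006960, a gene highest in seed coat, than the other 3. Tissue results are given below with all libraries and again without these. Axis libraries also differed for that gene, and no axis library was left out.

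Strong changes from early to mid seed were mostly rises, while changes of any size went both ways. By edgeR's quasi-likelihood test, 49.6% of the genes tested were called at an adjusted p under 0.05, with 26% higher and 23.6% lower in mid seed. The median change among called genes was 1.76-fold. At least 2-fold, 1893 genes rose and 1707 fell, which is 10.3% and 9.26% of those tested. At least 4-fold, 740 rose and 406 fell. At least 8-fold, 395 rose and 110 fell, and at least 16-fold, 222 rose and 33 fell. Rises thus made up 52.6%, 64.6%, 78.2% and 87.1% of the calls in these size classes. Among the 11988 genes with a mean of at least 10 CPM over both stages, the 16-fold class held 92 rises and 13 falls.

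Rises outnumbered falls at 4-fold and at 16-fold in every alternative tried, though both numbers moved. With early and mid libraries alone in the fit and filter, there were 563 rises and 369 falls at 4-fold, and 169 and 30 at 16-fold. At 16-fold there were 251 rises and 82 falls by DESeq2's Wald test, 269 and 81 without the filter on low counts, and 224 and 57 without mid library 5. At 4-fold the counts were 860 and 613 by DESeq2 and 901 and 688 without the filter. For smaller changes the order turned with the scaling, the filter and the libraries used. Without the filter 4476 genes were called higher and 5048 lower, and with early and mid libraries alone 4828 and 4972. At least 2-fold, these were 1981 and 2172, and 1647 and 1659. With upper-quartile scaling 4135 genes were called higher and 5217 lower, and at least 2-fold 1702 rose and 1950 fell. Without mid library 4, 4083 genes were called higher and 4631 lower. Levels in 3131 genes were higher in every mid library than in any early library, which is 17% of the genes tested, and in 2643, or 14.3%, they were lower. That order turned too, to 2770 higher and 3035 lower with DESeq2 size factors.

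**Figure D1:**
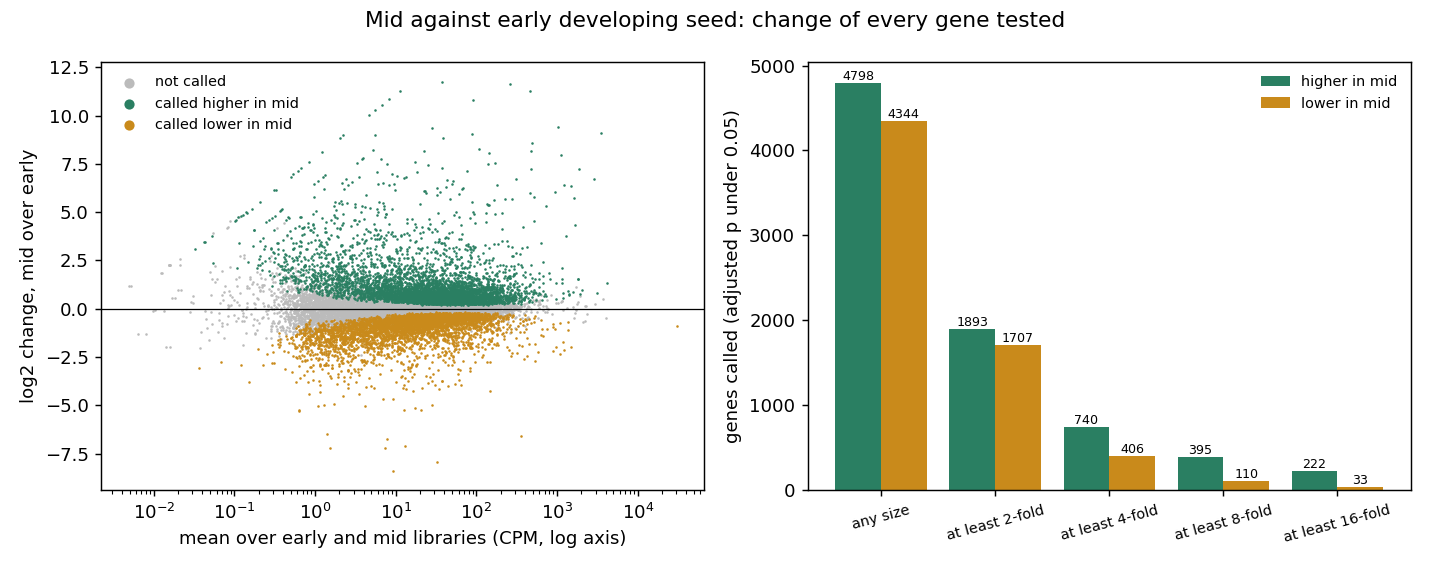
Left, each gene's log2 change from early to mid seed (vertical axis) against its mean level over the 12 libraries in CPM (horizontal log axis), coloured by the call at an adjusted p under 0.05 from edgeR. Right, the number of called genes that were higher or lower in mid seed, for any size of change and for changes of at least 2-, 4-, 8- and 16-fold. Rises and falls are near equal in the first 2 classes, where their order turns with the scaling, the filter and the libraries used. Rises outnumber falls by 222 to 33 in the last.

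Calls also differed with the level of a gene. Among the 20% of genes with the highest mean level, around a median of 96.7 CPM, 1305 of 3688 rose and 707 fell. With upper-quartile scaling these counts were 1100 and 923. In the next lower class of the same size 1015 rose and 874 fell, an order that turned to 853 and 1105 with upper-quartile scaling. In the class around a median of 7.53 CPM, 781 rose and 985 fell. The most highly expressed genes thus held more rises than falls under each scaling tried, including DESeq2 size factors.

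On library totals without TMM scaling, slightly fewer genes were detected in mid seed. The top of the expression list held a different share of counts depending on how far down it was read. At least 1 CPM on unscaled totals was found for 17023 to 17452 genes in early libraries. In mid libraries it was found for 16913 to 17252, so the stages overlapped. TMM factors were 1.18 to 1.29 in early and 1.04 to 1.12 in mid libraries. A cutoff of 1 CPM on scaled totals would thus be raised more in early libraries, and the difference with that scaling was not tested. The means were 17276 ± 161 and 17038 ± 122 genes (SD, n = 6; two-sided exact permutation test, p = 0.0238, adjusted p = 0.0476 over the 2 library measures planned). With 1 library left out at a time, the call was lost in 8 of 12 cases, without early library 2, 3, 4 or 5 or mid library 3, 4, 5 or 6 (adjusted p up to 0.0866 by the exact permutation test). The other planned measure, the share of the 100 most counted genes, was 18.8% ± 1.6 in early and 20.001% ± 1.034 in mid seed and did not pass (SD, n = 6; two-sided exact permutation test, adjusted p = 0.152).

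Other depths of that list were planned as alternatives, and their p-values are not adjusted. For the top 10 genes the share was 8.27% ± 0.77 in early against 6.98% ± 0.64 in mid seed (SD, n = 6; two-sided exact permutation test, p = 0.0130), the opposite direction to 100 genes. For the top 1000 it was 42.5% ± 1.7 against 46.1% ± 1.3 without overlap, where p = 0.00216 is the smallest that this exact permutation test can give (SD, n = 6). The fall in the top 10 turned on 1 gene, Sc18g0006960, described below. With that gene left out after its values were seen, the next 10 genes took 3.41% to 4.02% of counts in early libraries and 4.53% to 6.13% in mid libraries.

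The genes with the largest gains and losses of transcripts were mostly highest in different tissues of dissected mid seed. Among 5612 genes that were called and did not overlap between stages, the 20 with the largest rise in mean CPM took 1.02% to 1.12% of counts in early libraries and 5.61% to 7.47% in mid libraries. In the dissection series 16 of these 20 had their highest mean level in cotyledon, 1 in axis and 3 in seed coat, and 12 were at least 4-fold higher in both embryo parts than in seed coat. These 4 counts were the same without cotyledon libraries 1 and 5. The 20 with the largest fall took 5.91% to 9.33% in early libraries and 2.23% to 3.78% in mid libraries. Of these, 15 had their highest level in seed coat, 4 in axis and 1 in cotyledon, also without those libraries. Of all 17872 genes tested in both tables, 26.5% were highest in cotyledon, 34.6% in axis and 38.9% in seed coat. Only 1061 of them were at least 4-fold higher in both embryo parts than in seed coat. The dissection series holds mid seed alone, so the tissue in which a gene rose or fell was not observed. Fitted changes of the 20 rises ran from 0.78 to 9.42 on the log2 scale and those of the 20 falls from -0.73 to -6.58.

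The genes described singly here were chosen among those called without overlap, so their calls and their lack of overlap were set by that choice. Sc16g0007280 gained the most transcripts. Its level in early seed was 1.21 CPM in the lowest library, 11.4 at the median and 25.5 in the highest, and in mid seed it was 5139, 7179 and 8404 CPM. Early library 1 was the low one, mid library 5 was the lowest of its stage, and the stages were far apart. The log2 change was 9.11 ± 0.60 (SE, edgeR adjusted p = 1.85e-11). In the dissection series, which was normalized separately, the gene stood at 65291 ± 14264 CPM in cotyledon, 23604 ± 5914 in axis and 35.9 ± 20.8 in seed coat (SD, n = 5). Its level was thus far higher in the embryo parts, and by edgeR the cotyledon level was above the axis level (log2 difference 1.47, adjusted p = 0.00524). The difference was 1.67 without cotyledon libraries 1 and 5 (edgeR adjusted p = 0.00432). Whole seed of the mid stage had 15747 ± 6688 CPM (SD, n = 5), against 7085 ± 1173 in mid seed of the time course (SD, n = 6), levels that were not tested against each other. Late seed had 40331 ± 7145 CPM and dry seed 2089 ± 1026 (SD, n = 6).

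Sc03g0002590 had the next largest gain. Its lowest, median and highest levels were 9.06, 52.9 and 97.4 CPM in early seed and 4343, 5344 and 8397 CPM in mid seed. Early library 1 was again the lowest and mid libraries 1 and 3 were the highest, with no overlap. The log2 change was 6.70 ± 0.60 (SE, edgeR adjusted p = 2.57e-09). Both embryo parts held much of it, 81126 ± 18697 CPM in cotyledon and 127708 ± 21385 in axis, and seed coat had 87.2 ± 76.2 (SD, n = 5). The difference between cotyledon and axis was not called (log2 difference -0.65, edgeR adjusted p = 0.265, and 0.540 without cotyledon libraries 1 and 5). The ranges in CPM overlapped, at 54137 to 96905 in cotyledon and 90995 to 142420 in axis. As shares of counts they did not, at 5.40% to 8.09% in cotyledon and 10.2% to 14.6% in axis. Whole seed of the mid stage had 22298 ± 8841 CPM (SD, n = 5), again above mid seed of the time course. Late seed had 43589 ± 21095 CPM and dry seed 192 ± 101 (SD, n = 6).

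Sc18g0006960 lost the most transcripts, though its fold change was modest. Early libraries ranged from 29333 CPM through a median of 39746 to 51708, and mid libraries from 15105 through 21916 to 24385. Early libraries 4 and 1 were the highest and mid library 1 the lowest, without overlap. The log2 change was -0.91 ± 0.25 (SE, edgeR adjusted p = 0.00534). It accounted for 13.6% of all CPM lost over genes with a lower mean in mid seed. In the dissection series it was highest in seed coat, at 91952 ± 3903 CPM there, with 4471 ± 2961 in cotyledon and 1491 ± 1259 in axis (SD, n = 5). Whole seed of the mid stage had 47314 ± 10225 CPM (SD, n = 5), or 4.86% of counts. Mid seed of the time course had 2.28% and early seed 4.86%, so whole seed of the dissection series was nearer to early than to mid seed for this gene, though the series were normalized separately and were not tested against each other. Its cotyledon level was highest in libraries 5 and 1, at 8875 and 5938 CPM, and 1525 to 3538 in the others. In the same 2 libraries Sc16g0007280 was lowest, at 55594 and 45287 CPM. Axis levels of Sc18g0006960 ran from 177 CPM to 3497 CPM, the latter in axis library 3, which was kept. Late seed had 5656 ± 873 CPM of Sc18g0006960 (SD, n = 6), and no dry library had a count of it.

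Sc03g0003570 had the next largest loss and showed little difference between tissues. Early libraries ranged from 1491 CPM through a median of 2186 to 3756, and mid libraries from 375.5 through 564 to 959. Early libraries 1, 4 and 5 were high, at 2833 CPM or more, and libraries 2, 3 and 6 lay between 1491 and 1539. The log2 change was -1.96 ± 0.25 (SE, edgeR adjusted p = 8.19e-07). Mean levels were 791 CPM in cotyledon, 1005 in axis and 1026 in seed coat, and no pair passed the test (edgeR adjusted p = 0.0508 for cotyledon against seed coat, 0.881 for axis against seed coat and 0.0879 for cotyledon against axis). These were 0.189, 0.870 and 0.289 without cotyledon libraries 1 and 5. Whole seed of the mid stage had 1011 ± 134 CPM (SD, n = 5). Its level was 982 ± 85 CPM in late seed and 263 ± 71 in dry seed (SD, n = 6).

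**Figure D2:**
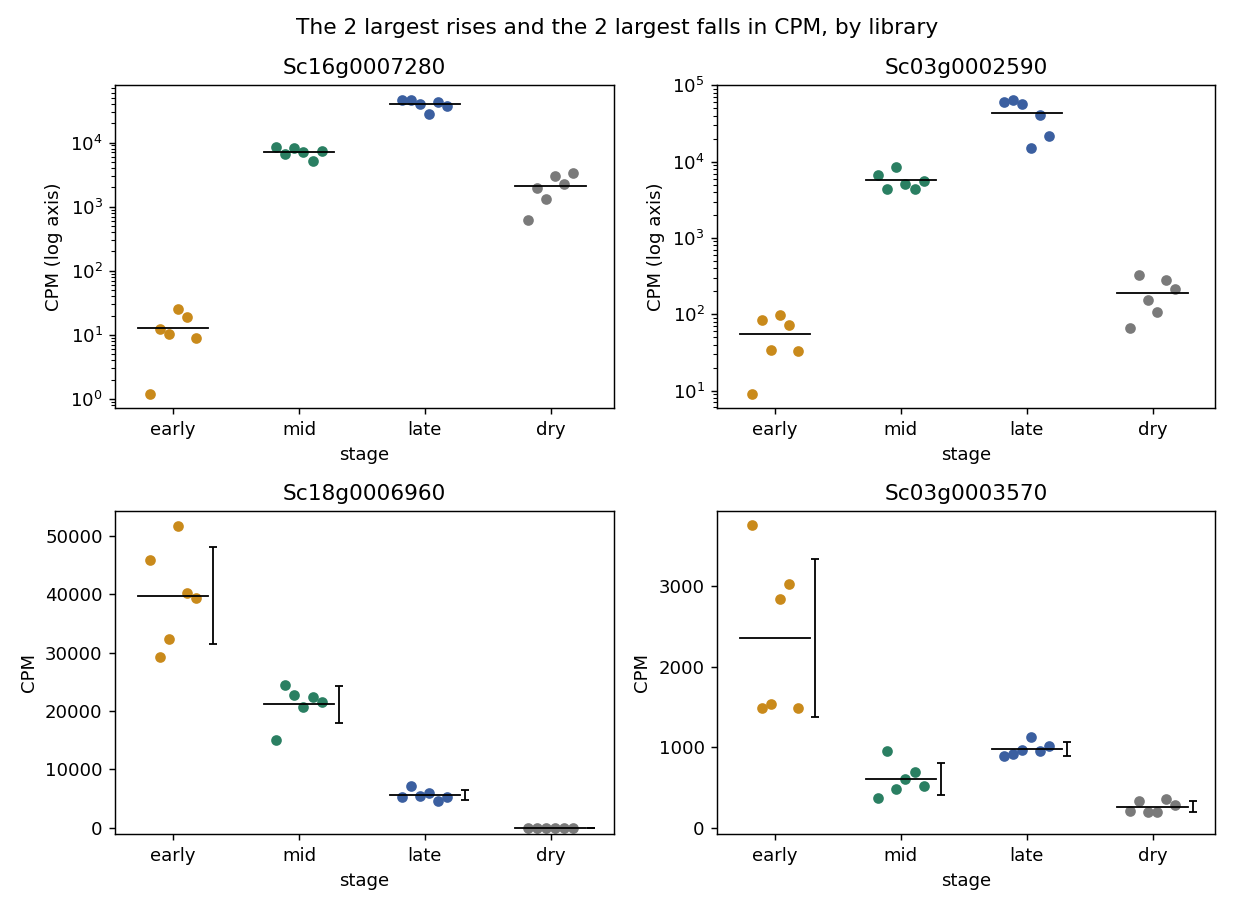
Level in CPM of the 2 genes with the largest rise (top, log axis) and the 2 with the largest fall (bottom, linear axis) in each of 6 libraries of early, mid, late and dry seed; lines are means and bars in the lower panels are SD. Early and mid libraries do not overlap in any panel, which the choice of these genes required. In the lower right panel early libraries fall into a high and a low group of 3.

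Genes with a higher level in either embryo part than in seed coat rose more often than they fell. The tissue lists came from dissection libraries of mid seed alone, which are not used in the stage comparison. They thus rest on mid stage levels, and genes with too few counts there could join none. Of the genes called at least 4-fold, 682 of 740 rises and 340 of 406 falls were tested in both tables. The part of this in the counts below was not tested. In these libraries, 8.65% of the 18499 genes tested were at least 4-fold higher in cotyledon than in seed coat (edgeR adjusted p under 0.05). For axis over seed coat it was 10.6%. Of 1432 genes of the first kind that were tested in the time course, 886 rose and 108 fell, with a median log2 change of 1.47. Of 1690 of the second kind, 877 rose and 207 fell, with a median of 0.96. The first list had 1641 genes without cotyledon libraries 1 and 5, of which 972 rose and 125 fell. A gene was on both lists in 1185 cases. Of the 1061 of these that were tested in the time course, 705 rose, 50 fell and 306 did not pass, and the median change was 3.35-fold upward. Over all 17872 genes tested in both tables, 26.3% rose and 23.6% fell, with a median change of 1.01-fold. With lists made without cotyledon libraries 1 and 5, 740 of 1146 rose and 59 fell. Counts on these embryo genes took 1.32% to 1.501% of early libraries and 8.09% to 10.2% of mid libraries. Mid libraries 3 and 1 had the largest shares. Without the most counted member, Sc16g0007280, the mid shares were 7.36% to 9.39%. With lists made without cotyledon libraries 1 and 5, the early shares were 1.44% to 1.62% and the mid shares 8.27% to 10.4%.

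Seed coat genes went the other way, by smaller steps. Genes at least 4-fold higher in seed coat than in axis were 7.47% of those tested in the dissection series, and those higher in seed coat than in cotyledon 4.49%. Of 1295 of the first kind that were tested in the time course, 598 fell and 160 rose, with a median log2 change of -0.57. Of 765 of the second kind, 356 fell and 99 rose, with a median of -0.62. Without cotyledon libraries 1 and 5 the second list held 1241 genes, of which 613 fell and 132 rose, and its share of counts was 12.2% to 16.5% in early and 6.11% to 10.05% in mid libraries. The share of counts on genes higher in seed coat than in cotyledon ranged from 9.65% to 14.1% in early libraries and from 4.78% to 8.26% in mid libraries, and without Sc18g0006960 from 5.54% to 8.004% and from 3.09% to 5.89%, where the stages overlapped. Early libraries 4, 1 and 5 had the largest share of genes higher in seed coat than in both embryo parts, at 13.4%, 12.7% and 12.1% against 9.12% to 10.9% in the other 3. These are the libraries in which Sc03g0003570 was high, and the part of that share in its level was not tested.

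Genes higher in cotyledon than in axis rose more often than all genes did, and genes higher in axis fell more often. Genes at least 4-fold higher in cotyledon than in axis were 2.98% of those tested in the dissection series, and the reverse 3.96%. Of 516 of the first kind that were tested in the time course, 183 rose and 126 fell, with a median log2 change of 0.15. Of 522 of the second kind, 107 rose and 198 fell, with a median of -0.44. Cotyledon libraries 1 and 5 changed the first list. Without them, 237 of 507 genes rose and 93 fell, and the median was 0.64. The second list then had 557 genes, of which 100 rose and 218 fell. Shares of counts did not overlap for either list, with 2.03% to 2.68% in early and 2.69% to 3.56% in mid libraries for cotyledon genes, and 0.670% to 0.863% and 0.366% to 0.474% for axis genes. When those libraries were left out they were 2.26% to 2.895% and 3.9995% to 4.96% for the first list, and 0.806% to 1.003% and 0.415% to 0.521% for the second.

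**Figure D3:**
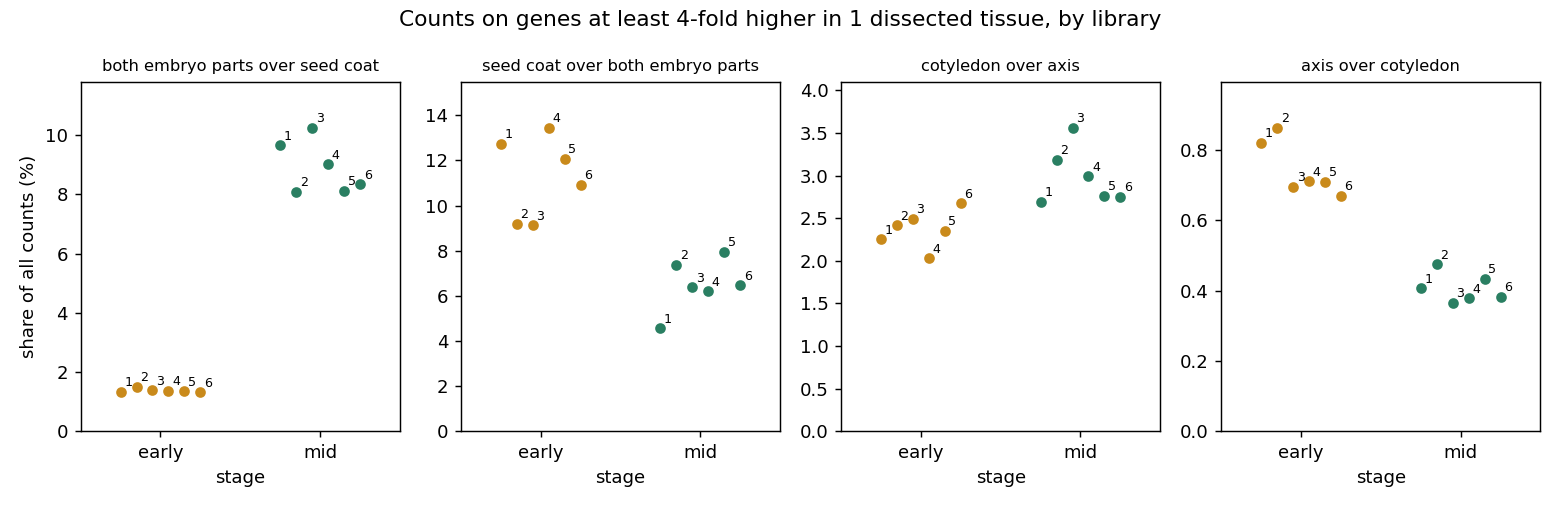
Share of all counts (vertical axis, percent, from 0) on genes at least 4-fold higher in 1 dissected tissue than in another, in each early and mid library; digits are library numbers. Embryo genes stand at 1.32% to 1.501% in early and 8.09% to 10.2% in mid libraries, and seed coat genes are lower in mid libraries.

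The relation to the tissue difference was graded over most of its range. Genes were binned by their log2 difference between cotyledon and seed coat. From the bin of -4 to -2 up to the bin above 4, the share of genes that rose went from 9.43% to 78.0% and the median log2 change from -0.73 to 2.98. In the bin above 4, 437 of 560 genes rose and 17 fell. Among 7719 genes within 0.5 of no difference, 23.0% rose and 21.5% fell, with a median log2 change of -0.00. The 134 genes at the other end, at least 16-fold higher in seed coat, did not continue the trend, with 39 that rose and 43 that fell and a median of 0.06. Without cotyledon libraries 1 and 5 this end held 236 genes, of which 48 rose and 89 fell, with a median of -0.46. The break in the trend was still there: 20.3% of these genes rose, against 8.37% of the 1040 genes in the neighbouring bin, where the median was -0.68.

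**Figure D4:**
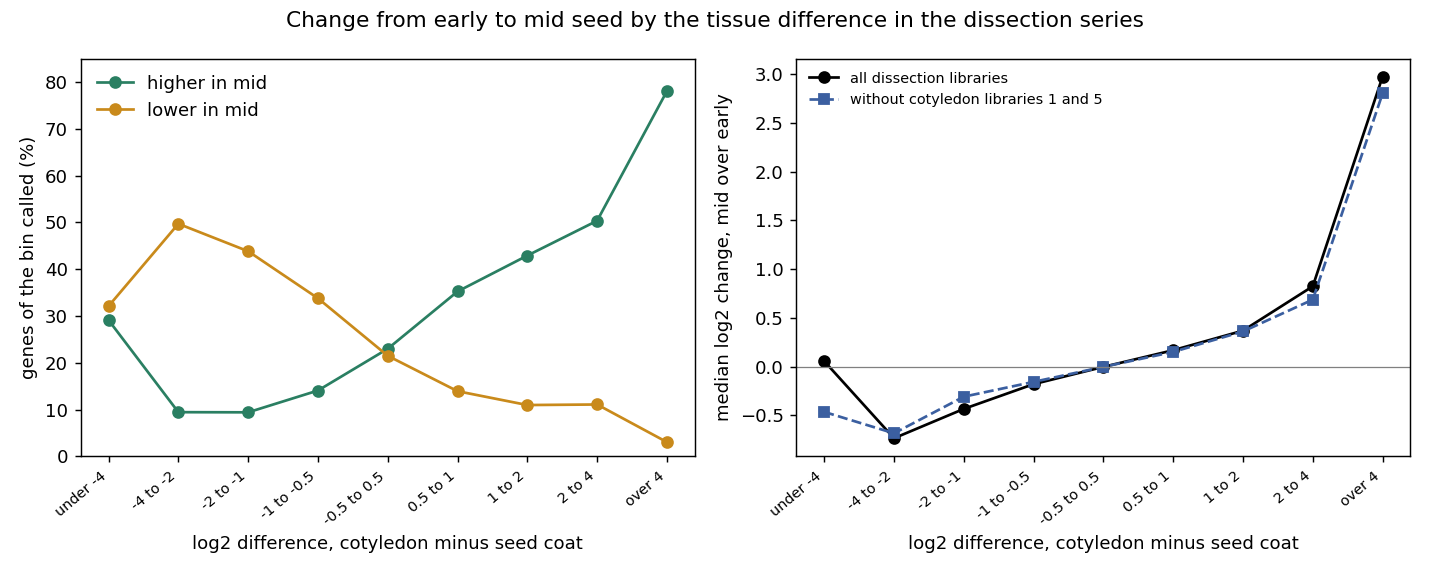
Genes binned by the log2 difference between cotyledon and seed coat in the dissection series (horizontal axes). Left, percent of each bin called higher or lower in mid than in early seed; right, median log2 change, with all dissection libraries and without cotyledon libraries 1 and 5. The median reaches 2.98 in the highest bin, and in the lowest bin it is 0.06 or, without the 2 libraries, -0.46.

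The genes most biased to seed coat moved in both directions. Of the 134 genes at that end, 26, or 19.4%, rose at least 2-fold, where 10.3% of all genes tested did, from a median level of 6.43 CPM in early seed to 23.2 in mid seed. Their median was 53.7 CPM in seed coat and 1.49 in cotyledon, and in the time course it was 10.3 CPM in late seed and 0.0240 in dry seed. Another 28, or 20.9%, fell at least 2-fold, against 9.26% of all genes, from a median of 8.997 CPM to 2.35, and had a median of 5.14 CPM in seed coat. The seed coat difference and the changes between early and mid seed chose these genes. Late and dry libraries entered the filter on low counts, and the part of this in the late and dry medians was not tested. Without cotyledon libraries 1 and 5, 34 of 236 genes, or 14.4%, rose at least 2-fold and 70, or 29.7%, fell.

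Genes of like level in all 3 tissues changed by at least 2-fold less often than all genes of the same level class, a description with no test. In 4125 genes, all 3 tissue differences were under 0.5 on the log2 scale. Of these, 923 rose and 856 fell. Only 196, or 4.75%, changed at least 2-fold, against 18.9% of all genes tested in both tables. Strong changes are more frequent among genes of low level, and few of the even genes were of low level. Within the 20% of genes with the lowest level, 26.1% of 199 even genes and 37.05% of all genes changed at least 2-fold, and within the 20% with the highest level 2.61% of 1110 and 12.6% of all. Of 3473 even genes found without cotyledon libraries 1 and 5, 174, or 5.01%, changed at least 2-fold. Read from the other side, of 682 genes that rose at least 4-fold and were tested in both tables, 350 were highest in cotyledon, 290 in axis and 42 in seed coat. Of 340 that fell at least 4-fold, 161 were highest in seed coat, 121 in axis and 58 in cotyledon. As shares, the rises were 51.3% cotyledon, 42.5% axis and 6.16% seed coat, the falls 17.1%, 35.6% and 47.4%, and all 17872 genes 26.5%, 34.6% and 38.9%. The axis share of the falls was thus near that of all genes. Without cotyledon libraries 1 and 5, 389 rises were highest in cotyledon, 252 in axis and 41 in seed coat, and of the falls 58, 115 and 167.

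A small set of genes was counted in 1 stage and nearly absent from the other. At least 10 counts in every mid library and at most 3 counts in all 6 early libraries together were found in 20 genes, and 7 of these had no count in any early library. The reverse was found in 2 genes. The 20 mid genes had a median of 4.67 CPM in mid seed and 52.3 CPM in late seed, where the medians over all genes tested were 19.0 and 18.5 CPM. Of the 20, 16 had a higher mean in late than in mid seed, and the share of all genes that did was not counted. In the dissection series, 18 of the 20 mid genes could be tested. Of these, 10 were highest in axis and 8 in cotyledon (8 and 10 without cotyledon libraries 1 and 5), with a median of 0.0612 CPM in seed coat. They ran from 1.26 to 75.4 CPM in mid seed, so the limit of 10 counts admits genes near the depth at which a gene can be seen. After thinning all libraries to the smallest total the counts were 21 and 3. With a limit of 5 counts they were 27 and 7, and with 20 counts 15 and 1.

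What had changed by mid seed was followed into dry seed in libraries of its own. Late and dry seed share no library with early and mid seed. All stages did share 1 fit and 1 filter on low counts, which a gene could pass through a single stage. The part of this in the shares below was not tested. Of the 1893 genes that rose at least 2-fold into mid seed, 931, or 49.2%, fell from late to dry seed and 571, or 30.2%, rose. Of the 1707 that fell at least 2-fold into mid seed, 1038, or 60.8%, fell again and 348, or 20.4%, rose. Over all 18440 genes, 43.3% fell and 36.8% rose by edgeR at an adjusted p under 0.05. The median log2 change from late to dry seed was -0.59 for the first group, -1.80 for the second and -0.13 for all genes. Median levels of the genes that had risen were 17.2 CPM in mid, 17.96 in late and 8.26 in dry seed, and those of the genes that had fallen were 2.96, 2.26 and 0.592 CPM.

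**Figure D5:**
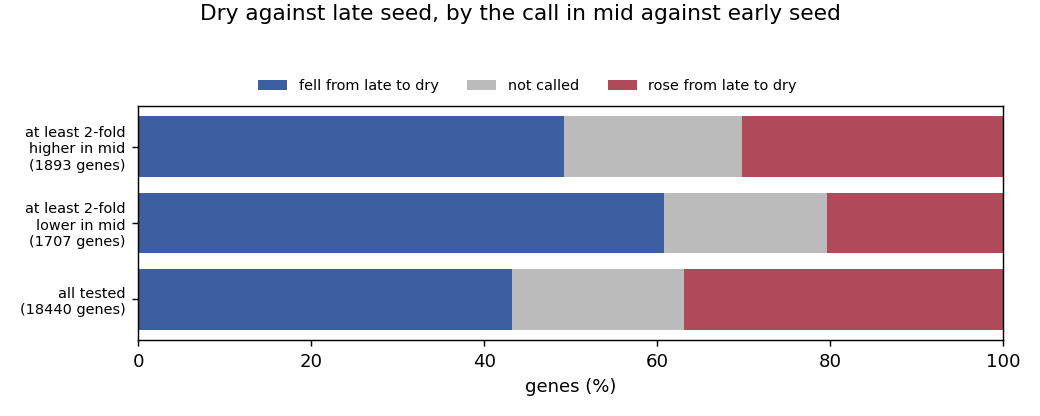
Percent of genes (horizontal axis) that fell, were not called or rose from late to dry seed, for genes at least 2-fold higher or lower in mid than in early seed and for all genes tested. Falls make up 49.2%, 60.8% and 43.3% of the 3 groups.

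The strongest risers took a larger share of counts in late seed than in mid seed, though the median gene among them differed little. The 740 genes that rose at least 4-fold took 0.765% ± 0.074 of counts in early seed and 9.60% ± 0.90 in mid seed, values that chose them (SD, n = 6). They took 24.8% ± 1.0 in late seed and 19.5% ± 3.6 in dry seed (SD, n = 6). Late and dry libraries entered the shared fit and the filter on low counts, so these shares were not apart from the choice. With early and mid libraries alone, 563 genes rose at least 4-fold. The part of the filter in these shares was not tested. The 406 genes that fell at least 4-fold took 2.67% ± 0.39, 0.420% ± 0.112, 0.164% ± 0.020 and 0.183% ± 0.024 in the same order (SD, n = 6). The median level of the 740 genes was 11.4 CPM in mid and 13.2 CPM in late seed. Late and mid seed were not tested against each other here, since that comparison shares the mid libraries.

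Changes were spread over all numbered groups of identifiers. Each identifier carries a number after the letters Sc, with 26 values, and the share of its genes that rose ranged from 21.5% to 28.9% and the share that fell from 19.8% to 28.7%. Genes with consecutive identifiers were somewhat alike. Among 3819 such pairs in which both genes were called, 57.6% went in the same direction, against 53.7% for identifiers 2 steps apart and 49.8% for those 100 steps apart. The overall shares of rises and falls alone give 50.1%. The Pearson correlation of the log2 changes was 0.12 over 15337 consecutive pairs and 0.01 over 12747 pairs 100 steps apart, a description across genes of the same libraries. Near-identical copies that share reads may lie side by side, and their part in this was not tested.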

How the data were processed

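Gene-level read counts, whole numbers as the authors deposited them, came in 1 table per series (time course, dissection). The submitters' processing notes list Trimmomatic, STAR and DESeq2. How reads were counted, on which build and annotation, and with what use of strand is not stated in the labels or files, so near-identical copies and antisense genes may share reads. RNA was extracted with hot borate for a stranded mRNA kit, per the labels' protocols. The authors' normalized tables were not used here.

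Tests were run in edgeR 4.0.16 (R 4.3.3): TMM, filterByExpr, 1 quasi-likelihood fit per table, Benjamini-Hochberg over every gene tested. SE is derived from the log2 change and its F statistic. The steps were tested on simulated data. DESeq2 1.42.0, other scalings, no filter, a replicate block and libraries left out were alternatives. Separate plants are not stated for the libraries, so the p-values reflect variation among libraries that could be technical. The lowest chi-square per degree of freedom within a stage was 8.50, for early libraries 2 and 3, so none was a repeat count of the same library. Early libraries 4 and 5 had 9.61, and the other early pairs 17.9 or more. This measure cannot tell whether libraries share a plant or RNA. Tables and plots were made in Python 3.11.15.

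Because identifiers carry no names, 4 genes are named: among genes called without overlap, those that gained or lost the most mean CPM, 2 each way. Lists planned by gene name could not be used. Members, lists and rules were chosen with earlier results of these data known. Lists over both embryo parts, evenly expressed genes, bins of the tissue difference, the 8-fold class, the 10 CPM floor and the 20 largest rises and falls were added after values were seen, and none was tested. The 4-fold and 16-fold classes were planned as descriptions, but the alternatives tried on them were added after values were seen, as was leaving out cotyledon libraries 1 and 5.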

Additional observations from a re-analysis of the deposited data

Results flagged for a closer look

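Early library 2 stood apart from the other 5 early libraries in the share of counts on genes at least 4-fold higher in axis than in seed coat, at 2.71%. The gap to the nearest library was 0.674 of the range of the group. It was the 1 value so marked among 52 groups of values looked at, where chance marks about 1 group in 20. The mid libraries, at 9.26% or more, were above it, so the separation of the stages did not rest on this library.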

How the results depend on the processing

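Of 876 values recomputed under alternatives, 811 kept their direction and side of the threshold, or moved by less than the limit used for counts and medians. That limit was wide for counts. The turn from 4798 higher and 4344 lower to 4135 and 5217 with upper-quartile scaling lay within it. So did the drop from 740 to 563 rises at 4-fold with early and mid libraries alone. The 811 thus do not show that the order of rises and falls held. For the other 65 values the cause was not tested, except that longer lists hold more genes. Falls of at least 4-fold and 16-fold numbered 613 and 82 by DESeq2 and 688 and 81 without the filter. With a mean of at least 10 CPM there were 308 rises and 152 falls at 4-fold, and 92 and 13 at 16-fold. Genes seen in early seed alone numbered 7 at 5 counts and 1 at 20 counts. The share difference was -1.29 percentage points for 10 genes and 3.61 for 1000, against 1.19 for 100.

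Median log2 changes moved for embryo lists over seed coat. For cotyledon they were 1.28 by DESeq2, 1.39 with upper-quartile scaling, 1.29 without the filter and 1.31 without cotyledon libraries 1 and 5. For axis they were 0.77 by DESeq2, 0.81 without the filter and 0.86 with early and mid libraries alone. For both parts they were 1.53, 1.66, 1.58 and 1.64 under the settings given for cotyledon. Genes higher in axis than in cotyledon had -0.50 with DESeq2 size factors, -0.52 with upper-quartile scaling and -0.58 with early and mid libraries alone.

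With tissue lists at 2-fold, 1538 genes rose and 233 fell for cotyledon over seed coat (median 0.76), 253 and 1078 for the reverse, 1429 and 505 for axis over seed coat (0.43), and 421 and 1220 for the reverse (-0.35). They were 645 and 427 for cotyledon over axis, 367 and 463 for the reverse (-0.10), 1109 and 145 for both embryo parts (0.91), and 196 and 835 for seed coat over both. Without cotyledon libraries 1 and 5, falls were 613 for seed coat over cotyledon, 416 for seed coat over both and 89 at the 16-fold end, and the median for cotyledon over axis was 0.64.

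With single libraries left out, 16-fold falls ranged from 34 to 57, falls among genes over 16-fold higher in cotyledon than in seed coat from 10 (without mid library 6) to 17, and the median from -0.51 to -0.35 for axis over cotyledon and from 1.40 to 1.48 for cotyledon over seed coat. The difference in genes detected, on totals without TMM scaling, ranged from -289 to -203.

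Rises made up 52.5% of calls, and 46.5% with DESeq2 size factors, 44.2% with upper-quartile scaling and 46.3% by DESeq2. They made up 47.0% without the filter, 49.3% with early and mid libraries alone and 46.9% without mid library 4. The median of all genes stayed between -0.07 and 0.02. With the replicate number as a block 8998 genes were called, 4732 higher and 4266 lower. Same-numbered early and mid libraries did not deviate together (r from -0.02 to 0.18, over 0.1 in 1 of 6 pairs; 2 of 6 early libraries correlated best with their own number). Depth limits the classes seen in 1 stage alone.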
